A study of Oryza sativa Indica Group with 36 samples.

Results

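The 150 genes described here had the widest daily swing toward a 16:00 maximum in leaves of the indica rice cultivar Guangluai4 (GL). Counts of each library were divided by the library's total to give CPM, a count scaled to depth, and the mean of log2(CPM + 0.5) was taken for each of 6 clock hours over the 18 GL libraries. Of 33942 loci with an identifier that starts with OS, 2626 were highest at 16:00 with a mean of at least 10 CPM there, after 6 clock genes had been set aside. Members were chosen by these GL values alone: ranked by the difference between the highest and the lowest hourly mean, here called the daily range, the first 150 were kept. Their values in the overexpression line played no part in the choice. Leaves were sampled at 4-h steps from 4:00 to 0:00 on 1 day, in GL and in OsPRR37-OE5 (OE), a line that overexpresses the clock regulator OsPRR37. Plants were 45-day seedlings in natural long days, the tissue was the uppermost fully expanded leaf, and each genotype had 3 libraries at each hour, 36 in all. Only 1 overexpression line was used, so OsPRR37 and any other property of that line cannot be told apart, and the promoter of the transgene is not given in the sources used here.

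Many leaf genes follow a daily programme set by light, sugars and the circadian clock, in which transcripts of related processes peak in the same part of the day. Pseudo-response regulators such as OsPRR37 are transcriptional repressors of this clock that act in turn from morning to evening. Clock genes of the evening, such as GIGANTEA, reach their maximum late in the light period, the part of the day at which the genes below peak.

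OsPRR37 itself separated the genotypes at every hour: single GL libraries held 1.35 to 425 CPM and single OE libraries 847 to 2001 CPM. Total counts were 8065894 to 15769659 per library. The summed level of 4 green leaf markers, subunits of Rubisco, its activase and an antenna protein, was 14920 to 62890 CPM. The activase OsRCA had a mean of 0 CPM at 8:00 in both genotypes. At 12:00 its means were 26631 CPM in GL and 18632 CPM in OE. The cause was not tested, and 8:00 is also the hour at which most members were lowest. Another listed leaf marker, OsRBCS4, is not among the loci counted. The shoot meristem marker OSH1 had no count in any library. One GL library at 0:00 (replicate 3) carries a genotype field that names the overexpression line. It was kept in GL by its title, where its OsPRR37 level of 4.50 CPM was close to the 4.76 and 4.57 CPM of replicates 1 and 2, and the rule chose the same 150 genes without it. In bulk leaf tissue, fewer cells of a type and less RNA per cell cannot be told apart.

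The choice rested on GL values, so the GL profile is a description without a test. The daily range in GL ran from 4.83 to 11.5 log2 units with a median of 5.74. The last genes kept, at ranks 148 to 150, had ranges of 4.85, 4.84 and 4.83, and the first genes left out, at ranks 151 to 153, had 4.82, 4.80 and 4.79. The minimum fell mostly in the morning: 116 of the 150 genes were lowest at 8:00 and 28 were lowest at 4:00. As a share of all counts, the 150 genes together took 0.144% ± 0.0341 of a GL library at 8:00 and 5.27% ± 0.172 at 16:00 (SD, n = 3). At the intermediate hours the GL shares were 1.10% ± 0.0783 at 12:00, 2.00% ± 0.140 at 20:00, 0.594% ± 0.0193 at 0:00 and 0.182% ± 0.0336 at 4:00 (SD, n = 3). The approach to the maximum and the decline from it were unequal. In 110 genes the 20:00 mean was above the 12:00 mean, and 99 of these were lowest at 8:00. In the remaining 40 genes noon was above evening, and 17 were lowest at 8:00 while 20 were lowest at 4:00.

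**Figure D1:**
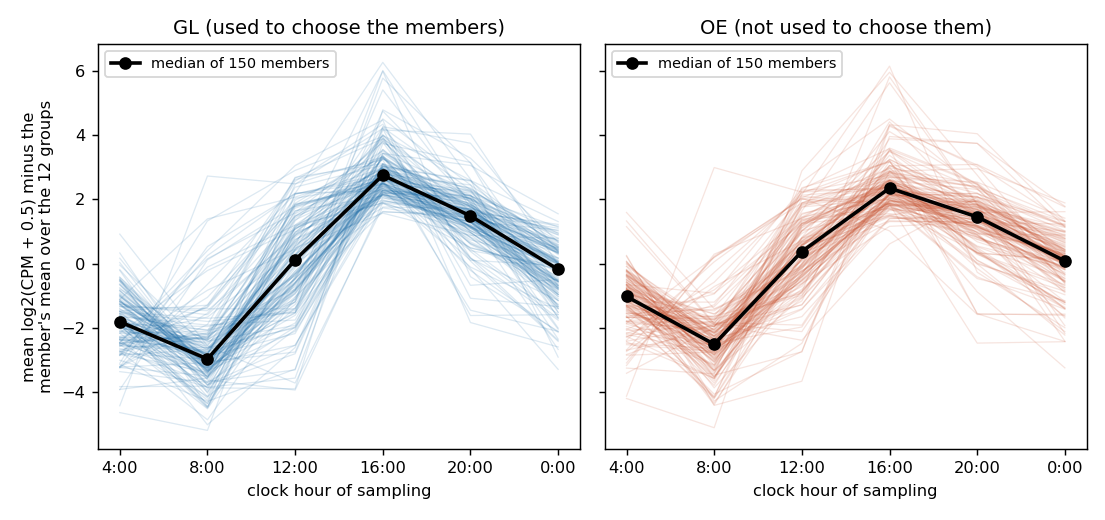
Hourly means of log2(CPM + 0.5) for each of the 150 genes, minus the gene's mean over the 12 groups, against the clock hour in GL and OE. Thin lines are genes and the black line is their median, which is lowest at 8:00 and highest at 16:00 in both genotypes.

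The 150 genes were spread over all 12 chromosomes, from 32 on chromosome 1 and 22 on chromosome 3 down to 3 on chromosome 11. They were not 150 independent loci: 10 pairs of members overlap in the genome, 9 of them on opposite strands, and the genes cover 140 separate stretches. The libraries do not mark the strand of origin, so reads of such partners cannot be told apart. Of the 150 members, 45 overlap a locus that was not chosen. Among the members named below, NADH-GOGAT2, OsCIPK12, OsPIP2;7, OsHsfC1b and OsG6PGH1 each overlap 1 such locus. Their reads are uncertain where the loci overlap. The transcripts were 237 to 7224 bases long with a median of 1608, beside 1911 for the 13043 OS loci with at least 10 CPM in any group. Per unit length, their level at 16:00 in GL was 5.34 to 10503 FPKM (fragments per length and depth), with a median of 81.9. The 2476 genes that met the peak and level conditions but were not among the 150 had a median of 31 FPKM. The GL level at 16:00 set the top of the daily range, so this difference is not independent of the rule.

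A single gene, OS07G0529600, made up much of the afternoon signal: it held 16.5 to 17.6% of the members' counts in the GL libraries at 16:00 and 15.6 to 17.2% in the OE libraries. Its level in GL rose from 0.872, 4.08 and 4.42 CPM at 8:00 to 9064, 8452 and 9139 CPM at 16:00. The widest range, 11.5 log2 units in GL and 11.1 in OE, belonged to this gene. OS01G0606900 was closest to an on and off pattern. It had 308, 188 and 210 CPM at 16:00 in GL, at most 8.26 CPM at any other hour, and no count in 2 of the 3 libraries at 8:00. OS03G0184100 was still below 0.5 CPM at 12:00 in GL (0.0843, 0.478 and 0.451 CPM) and stood at 360, 335 and 317 CPM at 16:00. The files do not pair these identifiers with names, and 12 other members could be named from the reference table.

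Whether the afternoon maximum is present in the overexpression line was asked in the 18 OE libraries, which the rule had not used. All 150 genes changed over the day in OE (68.6% of the 21772 genes tested did), by the quasi-likelihood test of edgeR with p-values adjusted over all genes tested after Benjamini and Hochberg, the test behind every adjusted p below. All 150 were also higher at 16:00 than at the mean of the other 5 OE hours, where 25.5% of all genes tested were called higher. Of the 2476 genes that met the peak and level conditions in GL but were not chosen, 2258 changed over the day in OE. Of the same 2476, 2038 were called higher at 16:00. The members' log2 difference was 0.48 to 8.40 with a median of 2.73, beside a median of 0.03 over all genes tested. The hour of the highest OE mean was 16:00 in 133 genes, 20:00 in 13, 12:00 in 3 and 8:00 in 1. That is 88.7% at 16:00, beside 77.9% of the 2476 genes with a GL maximum at that hour that were not chosen. Over the 13043 OS loci with at least 10 CPM in any group, the share was 23.9%. In 99 genes every OE library at 16:00 was above every other OE library, a count that was not made over all genes. The evening or noon shoulder also recurred: 105 of the 110 genes with evening above noon in GL had that order in OE, and 38 of the 40 with noon above evening.

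The daily range was narrower in OE for 138 of the 150 genes, with a median of 4.89 log2 units in OE and a median difference from GL of -0.86. Since the genes were picked for a wide GL range, no test was made of this difference. Across the 150 genes the ranges of the 2 genotypes went together (Pearson r = 0.866, Spearman rho = 0.755, a description over genes that share the same libraries). The share of counts taken by the 150 genes in OE was 4.34% ± 0.369 at 16:00 and 0.133% ± 0.0292 at 8:00 (SD, n = 3). At 16:00 the OE libraries, at 4.08 to 4.76%, lay below the GL libraries, at 5.14 to 5.46%. At 0:00 the order was the other way, 0.837 to 0.869% in OE and 0.579 to 0.616% in GL, and at 4:00 it was 0.268 to 0.378% and 0.144 to 0.207%. The groups did not overlap at any of these 3 hours. They overlapped at 8:00, with 0.104 to 0.164% in GL and 0.0989 to 0.150% in OE. At 12:00 they also overlapped, with 1.02 to 1.175% in GL and 1.11 to 1.12% in OE. The same held at 20:00, with 1.91 to 2.16% in GL and 2.09 to 2.14% in OE.

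**Figure D2:**
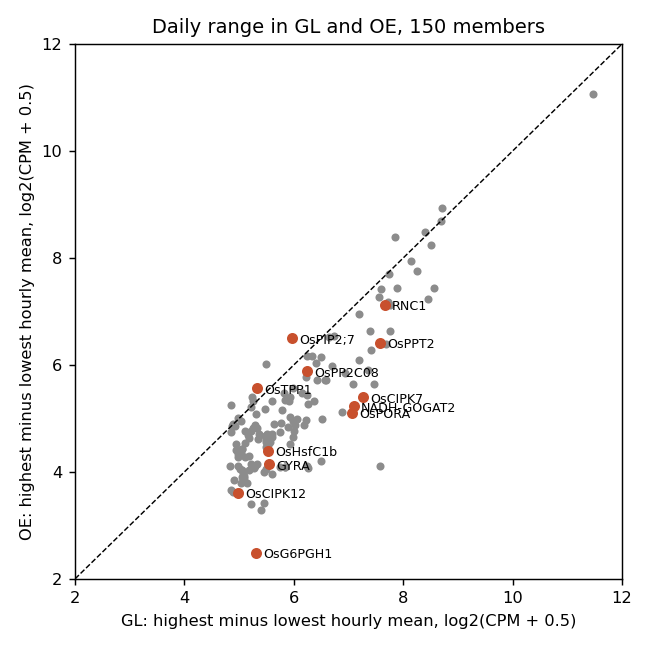
Daily range of each of the 150 genes in GL (horizontal) and OE (vertical), both as the highest minus the lowest hourly mean of log2(CPM + 0.5), with named members in orange and a dashed line of equal range. The members' medians are 5.74 in GL and 4.89 in OE, and 138 points lie below the line.

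Applying the same rule to the OE libraries gives a view from the other side. It selected 105 of the 150 genes again, which is 70.0% of each list. The 150 genes chosen in OE had a median range of 4.95 in OE and 5.49 in GL, so the range was wider in GL at the median whichever genotype made the choice. At 16:00 the median log2 difference of OE from GL was -0.46 for the genes chosen in GL, -0.33 for those chosen in OE, and -0.16 for the 2476 genes that peak at that hour in GL but were not chosen. At 4:00 the same medians were 0.54, 0.51 and 0.08. The 2 lists share most genes and the same libraries, and the values are given side by side only.

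At 16:00, the hour of their maximum, 21 of the 150 genes were lower in OE than in GL and 0 were higher, where 3.16% of all genes tested were called lower, 4.75% higher and 7.91% either way. The median log2 fold change was -0.46, beside -0.02 over all genes tested. Of the 150 values, 135 were below 0, and 68 genes had an unadjusted edgeR p under 0.05. These 2 counts were not made over all genes. DESeq2 called 35 genes lower and 0 higher, where it called 1046 lower and 1303 higher of 21742 genes tested. With the replicate number added to the edgeR model as a block, 44 genes were lower and 1 was higher. That fit called 1331 lower and 1917 higher of all genes tested. The GL values at this hour had chosen the genes. The count of 21 lower depended on single libraries. Without replicate 1 of OE at 16:00 it was 46 lower and 1 higher, without replicate 2 of that group 6, and without replicate 3 of it 8. Without GL replicate 1 at 16:00 it was 9, and without GL replicate 3 at 16:00 it was 13. Over the members, replicate 1 of OE at 16:00 lay a median of 0.29 log2 units above the mean of its 2 partners, and the median SD between replicates was 0.26 in OE and 0.15 in GL.

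Some other marker genes moved at the same hour. The summed level of 4 jasmonate genes was 45.0, 49.9 and 49.9 CPM in GL and 73.4, 112 and 110 CPM in OE at 16:00, and 2 of the 4 were called higher. The sum of 3 secondary wall cellulose synthases was 7.56, 2.98 and 3.64 CPM in GL and 28.5, 6.15 and 6.56 CPM in OE, with 0 of 3 called, and the high value was again OE replicate 1. The sum of 3 defence genes was 79.8, 41.2 and 54.2 CPM in GL and 111, 87.8 and 102 CPM in OE, with 0 of 3 called. Most of that sum was OsWRKY45, with means of 57.2 CPM in GL and 99.4 CPM in OE. OsPR1a and OsPR1b were below 1 CPM and went the other way (log2 -0.23 and -0.63). Of the cell division, heat and dehydration markers, 0 were called at 16:00. The part of these marker genes in the result was not tested. The green leaf markers overlapped, at 20080 to 22240 CPM in GL and 19250 to 26350 CPM in OE, and 0 of 4 were called at 16:00.

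**Figure D3:**
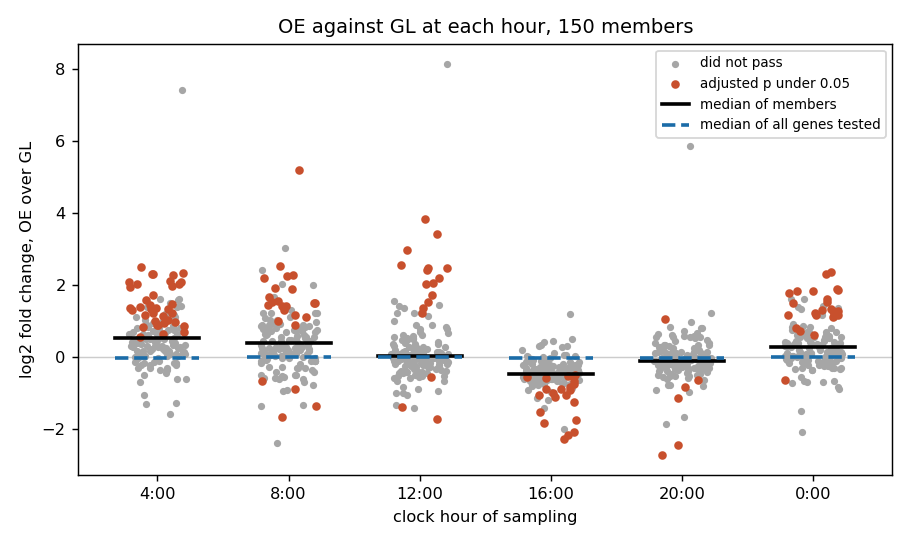
Log2 fold change of OE over GL for the 150 genes at each clock hour, from edgeR. Orange points passed an adjusted p of 0.05 and grey points did not; the black line is the members' median (0.54 at 4:00, -0.46 at 16:00) and the dashed blue line the median of all genes tested.

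Outside the afternoon the calls ran mostly the other way. The GL values of every hour had entered the choice, and most strongly those at 8:00 and 4:00, where 116 and 28 members had the minimum that set their range, so these counts are not independent of the rule. At 4:00, 37 genes were higher in OE and 0 were lower, where 1.97% of all genes tested were called higher, 2.51% lower and 4.48% either way. The members' median log2 fold change was 0.54. Midnight gave 23 higher and 1 lower (1.28% and 1.05% of all genes tested, 2.33% either way), with a median of 0.27. The midnight count fell to 13 called in all without GL replicate 2 at 0:00, and was 17 without GL replicate 3, the library with the contradictory genotype field. At 8:00, the hour of the minimum, 20 genes were higher and 4 lower (1.94% and 1.37% of all genes tested, 3.31% either way), with a median of 0.38. That count of 24 was 11 without GL replicate 1, 13 without GL replicate 2 and 11 without OE replicate 3 of that hour.

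Noon and evening held fewer calls. At 12:00, 14 genes were higher and 3 lower in OE (1.42% and 0.597% of all genes tested, 2.02% either way), with a median of 0.02. At 20:00, 1 gene was higher and 5 lower (1.1% and 1.41% of all genes tested, 2.51% either way), with a median of -0.10. Those 6 calls became 2 without replicate 2 of either genotype at 20:00 and 3 without replicate 3 of either. The higher calls at 8:00 and 12:00 lay mostly in the genes whose evening level exceeds noon. Of these 110 genes, 16 were higher and 1 lower at 8:00, and 13 were higher and 0 lower at 12:00. Of the 40 genes with noon above evening, 4 were higher and 3 lower at 8:00, and 1 was higher and 3 were lower at 12:00. The difference between these 2 shapes was not tested.

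**Figure D4:**
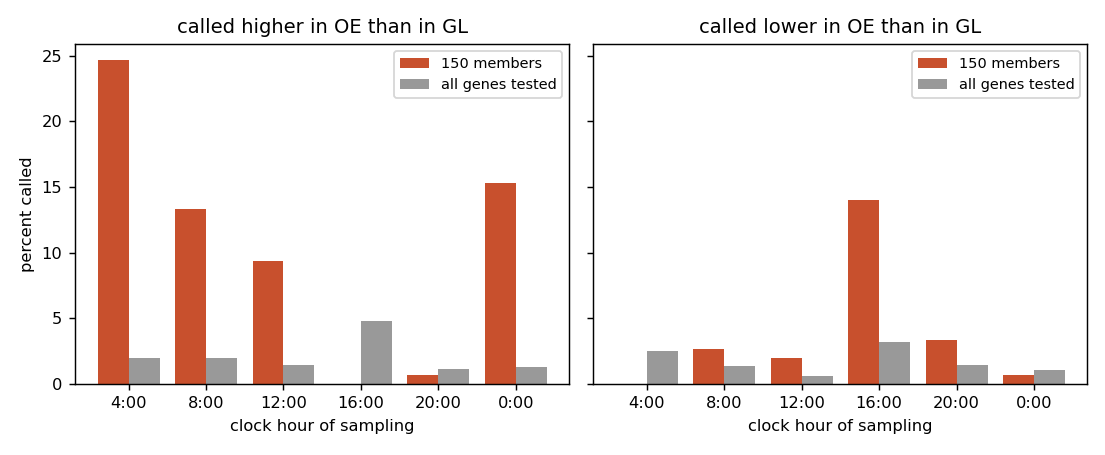
Percent of the 150 genes (orange) and of all 21772 genes tested (grey) called higher (left) or lower (right) in OE than in GL at each clock hour, at an adjusted p of 0.05. The 37 higher calls at 4:00 and the 21 lower calls at 16:00 are the tallest bars on their sides.

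Averaged over the 6 hours, 45 genes were higher in OE and 10 were lower, where 14% and 12% of all genes tested were called, 26% either way. Of the 150 genes, 76 were called at no hour, 36 at 1 hour and 38 at 2 or more. Higher calls with no lower one were made for 51 genes, lower calls with no higher one for 13, and calls in both directions at different hours for 10. Among the last were 8 genes that were higher at 4:00 and lower at 16:00. These counts across hours were made for the members only, without a share over all genes beside them. The shape over the day differed between the genotypes in 41 genes, where 1.88% of all genes tested passed the genotype by hour interaction. DESeq2 called 71 genes and a limma fit to log2(FPKM + 0.1) called 26, where 1035 and 295 of all genes tested passed. The GL shape had chosen these genes, so their share is not independent of the rule; of the 150 genes chosen in OE, 29 passed.

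Of the named members that act in plastids, a pair was lower in OE. The 138 members without a name were not grouped by role. OsPORA (OS04G0678700; IRGSP-1.0 chromosome 4, 34663049 to 34664693), which encodes the light-dependent protochlorophyllide oxidoreductase of chlorophyll synthesis, had 1152, 1225 and 1599 CPM in GL and 536, 187 and 273 CPM in OE at 16:00. No OE library reached the GL libraries. Its log2 fold change at 16:00 was -2.07 (SE 0.58; adjusted p = 0.026), and it was lower averaged over the day (log2 -1.41, SE 0.24; adjusted p = 5.8e-05). In GL it was high already at noon, at 675, 745 and 497 CPM, and in OE the noon libraries had 446, 291 and 298 CPM, so that the OE mean was as high at 12:00 as at 16:00. The 16:00 call was lost without GL replicate 1 or 3 or OE replicate 2 or 3 of that hour, with adjusted p values of 0.0549, 0.0744, 0.145 and 0.124 by the same edgeR test.

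NADH-GOGAT2 (OS05G0555600; chromosome 5, 27622108 to 27636526), an NADH-dependent glutamate synthase that assimilates nitrogen into glutamate, changed in the same direction. Its libraries at 16:00 held 555, 758 and 832 CPM in GL and 384, 107 and 135 CPM in OE. The groups did not overlap, although OE replicate 1 stood well above its partners. It was lower in OE at 16:00 (log2 -1.84, SE 0.36; adjusted p = 0.0020) and averaged over the day (log2 -0.83, SE 0.16; adjusted p = 1.9e-04, edgeR). Within OE it was still higher at 16:00 than at the other hours by 3.66 log2 units (SE 0.23). Its rise was late in GL, with 25.9, 62.8 and 45.1 CPM at noon.

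The other named plastid members were not called at 16:00. OsPPT2 (OS08G0344600), a translocator of phosphoenolpyruvate across the plastid envelope, had 260, 233 and 239 CPM in GL and 243, 203 and 193 CPM in OE at 16:00, against 0.436, 0.833 and 1.16 CPM in GL and 1.26, 2.89 and 2.11 CPM in OE at 8:00. No hour was called, and the 8:00 difference of 1.23 (SE 0.36) had an adjusted p of 0.056 (edgeR). RNC1 (OS01G0810100), which in maize is a factor for splicing chloroplast introns, had 233, 205 and 197 CPM in GL at 16:00. The OE libraries of that hour held 254, 124 and 146 CPM and straddled them, and the difference was not called (log2 -0.37, SE 0.22; edgeR adjusted p = 0.35). Without OE replicate 1 at 16:00 it was -0.81 with an adjusted p of 0.00836. GYRA (OS03G0812000), the A subunit of an organellar DNA gyrase, had a broad plateau from afternoon to evening in both genotypes, with 72.4, 71.1 and 57.0 CPM at 16:00 and 64.4, 63.9 and 50.8 CPM at 20:00 in GL. At 8:00 it was higher in OE by 1.41 log2 units (SE 0.37; adjusted p = 0.029), with 1.10, 3.94 and 3.05 CPM against 0.698, 1.25 and 0.885 CPM. The lowest OE library lay within the GL range, and the 8:00 call was lost without any 1 of the 3 GL libraries or without OE replicate 2 or 3 of that hour (edgeR adjusted p of 0.0549 to 0.167) and in limma on log2(FPKM + 1) (adjusted p = 0.201).

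**Figure D5:**
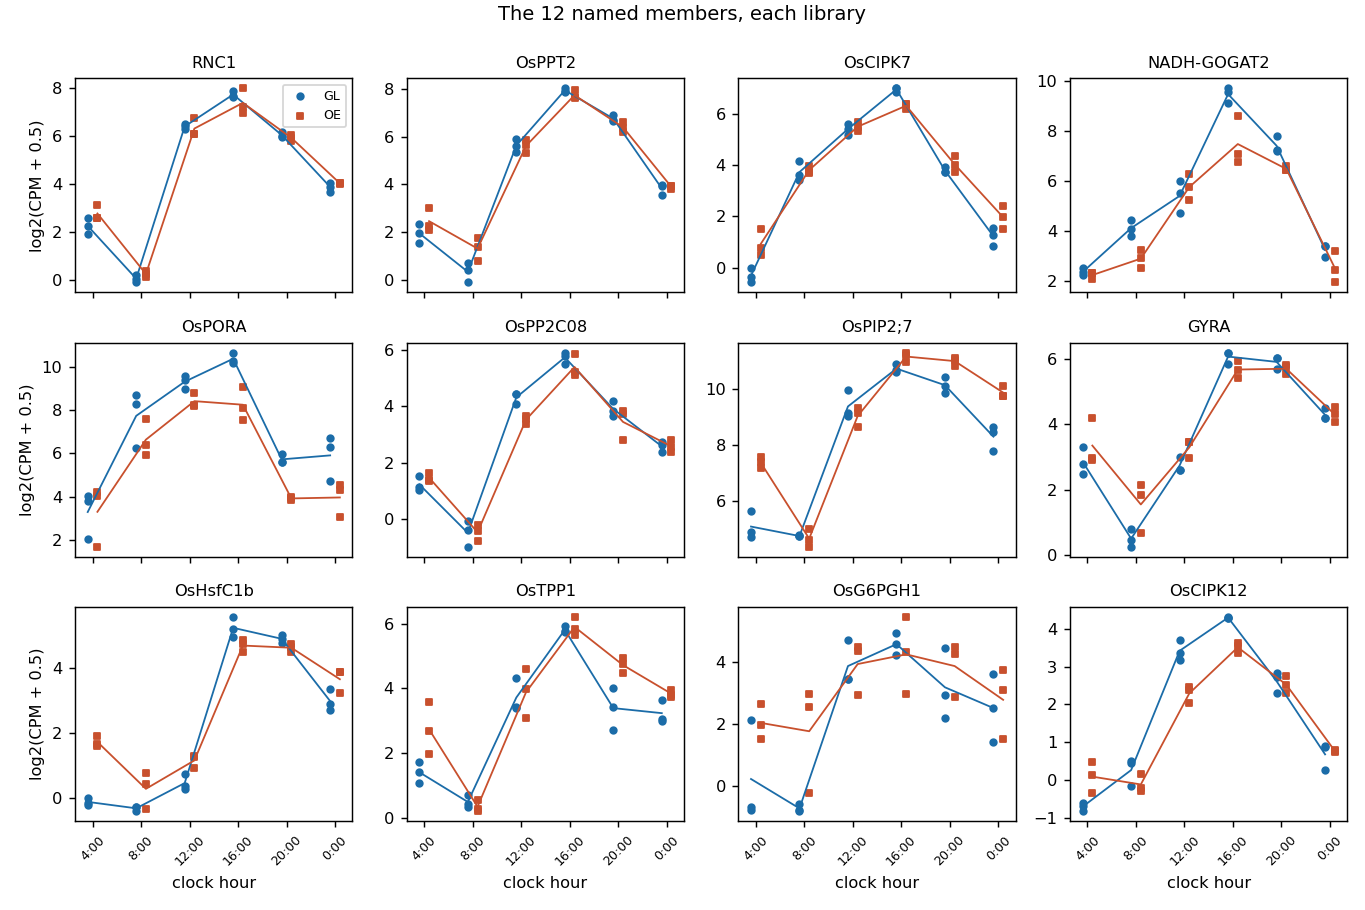
Log2(CPM + 0.5) of the 12 named members in every library against the clock hour, GL in blue circles and OE in orange squares, with lines through the means of 3 libraries. At 16:00 the OE libraries of OsPORA and NADH-GOGAT2 lie below all GL libraries, and at 4:00 those of OsPIP2;7 and OsHsfC1b lie above all GL libraries.

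The named signalling kinases moved at both ends of the day. OsCIPK7 (OS03G0634400; chromosome 3, 24226517 to 24227860), a kinase of the calcium sensor network of CBL proteins, had 128, 116 and 127 CPM in GL and 83.7, 71.6 and 83.2 CPM in OE at 16:00. At 4:00 it had 0.168, 0.496 and 0.278 CPM in GL and 0.905, 1.20 and 2.34 CPM in OE. The genotypes did not overlap at either hour and their order was opposite. The log2 fold change was -0.74 (SE 0.22; adjusted p = 0.034) at 16:00 and 2.12 (SE 0.45; adjusted p = 0.0035) at 4:00, and the shape over the day differed (interaction adjusted p = 0.007, edgeR). The 16:00 call was lost without any 1 library of that hour other than OE replicate 1 (edgeR adjusted p of 0.0557 to 0.163) and in limma on log2(FPKM + 0.1) (adjusted p = 0.111). Without OE replicate 3 at 4:00 the 4:00 difference was 1.75 with an adjusted p of 0.0544 by the same test, and in limma on log2(FPKM + 1) it was 0.63 with an adjusted p of 0.0751.

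OsCIPK12 (OS01G0759400; chromosome 1, 31943539 to 31948572), a kinase of the same family, followed a like course at a lower level. At 16:00 it had 18.9, 18.9 and 19.3 CPM in GL and 11.9, 11.1 and 9.71 CPM in OE, and at 12:00 it had 9.78, 8.53 and 12.6 CPM in GL and 3.6, 4.72 and 5.01 CPM in OE. Every OE library was below every GL library at both hours. The log2 fold change was -1.40 (SE 0.25; adjusted p = 0.0014) at 12:00, -0.91 (SE 0.24; adjusted p = 0.020) at 16:00 and 2.08 (SE 0.47; adjusted p = 0.025) at 4:00, with an interaction adjusted p of 0.0025 (edgeR). At 4:00 the levels were only 0.168, 0.124 and 0.0695 CPM in GL and 0.302, 0.601 and 0.895 CPM in OE. That call was lost without GL replicate 2 or 3 or OE replicate 2 or 3 of the hour (edgeR adjusted p of 0.0539 to 0.217), in DESeq2 (adjusted p = 0.0714) and in limma on FPKM. The 16:00 call was lost without GL replicate 1 or 3 or OE replicate 2 or 3 of that hour (edgeR adjusted p of 0.0583 to 0.113) and in limma on log2(FPKM + 0.1) (adjusted p = 0.0899).

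OsPP2C08 (OS01G0656200; chromosome 1, 26652949 to 26658285), a protein phosphatase 2C, had 54.9, 45.4 and 59.9 CPM in GL and 58.1, 36.4 and 34.4 CPM in OE at 16:00. The groups overlapped, and no hour was called. Within OE its 16:00 level exceeded the other hours by 3.61 log2 units (SE 0.21). The member OS01G0656250 overlaps it on the opposite strand over 4678 bases, so its reads are uncertain.

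An aquaporin and a heat stress factor were among the members that were higher in OE at 4:00. OsPIP2;7 (OS09G0541000; chromosome 9, 21310166 to 21311139), an aquaporin of the plasma membrane, had 29.5, 26.2 and 49.9 CPM in GL and 145, 190 and 167 CPM in OE at 4:00. At 0:00 it had 402, 224 and 351 CPM in GL and 865, 875 and 1104 CPM in OE, again without overlap. The log2 fold change was 2.09 (SE 0.30; adjusted p = 3.4e-05) at 4:00 and 1.51 (SE 0.29; adjusted p = 0.0020) at 0:00. At 16:00 it was 0.33 (SE 0.28; edgeR adjusted p = 0.54), and at 8:00 the libraries of the 2 genotypes overlapped at 26.3 to 27.1 CPM in GL and 20.3 to 31.8 CPM in OE. Averaged over the day it was higher in OE (log2 0.67, SE 0.12; adjusted p = 7.6e-05), and the interaction passed (adjusted p = 0.0011, edgeR).

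OsHsfC1b (OS01G0733200; chromosome 1, 30582636 to 30583497), a class C heat stress transcription factor, was low in GL at 4:00, with 0.505, 0.372 and 0.417 CPM, and had 2.56, 2.70 and 3.24 CPM in OE. The 4:00 difference was 2.50 log2 units (SE 0.37; adjusted p = 6.1e-05, edgeR). At 16:00 GL had 46.8, 30.1 and 36.1 CPM and OE 28.7, 21.7 and 25.8 CPM. These groups did not overlap, and the difference of -0.67 (SE 0.24) was not called (edgeR adjusted p = 0.089). It was called in DESeq2 (adjusted p = 0.0456) and by edgeR with the replicate block (adjusted p = 0.0154). By edgeR it was also called without OE replicate 1 at 16:00 (adjusted p = 0.0483) or OE replicate 3 at 8:00 (adjusted p = 0.0422). The average was higher in OE by 0.70 (SE 0.13; adjusted p = 2.3e-04), and the shape differed (interaction adjusted p = 6.7e-04, edgeR).

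Of the named enzymes of sugar metabolism, both differed from GL only by calls that other fits lost. OsTPP1 (OS02G0661100), which removes the phosphate from trehalose phosphate, had 59.6, 53.7 and 53.3 CPM in GL and 73.3, 56.9 and 49.5 CPM in OE at 16:00. The genotypes overlapped there and separated at 20:00, at 15.6, 10.3 and 6.08 CPM in GL and 26.4, 29.9 and 21.7 CPM in OE, although that hour was not called (log2 1.23, SE 0.41; edgeR adjusted p = 0.12). Its average difference of 0.51 (SE 0.19) passed narrowly (adjusted p = 0.048, edgeR) and was lost in 27 of 36 fits that left out 1 library, while its OE maximum at 16:00 (log2 2.79, SE 0.27; edgeR adjusted p = 1.5e-09) was called in all 36. OsG6PGH1 (OS06G0111500), a 6-phosphogluconate dehydrogenase of the oxidative pentose phosphate pathway, had the narrowest daily range of all members in OE, 2.48 log2 units against 5.31 in GL. Its OE libraries at 16:00 were 19.6, 7.35 and 43.6 CPM and overlapped those of noon, at 7.20, 20.2 and 22.2 CPM. The OE afternoon maximum of 1.41 log2 units (SE 0.57; adjusted p = 0.043) was lost in 8 of 36 such fits, in DESeq2 (adjusted p = 0.105) and in limma on log2(FPKM + 0.1) and log2(FPKM + 1) (adjusted p of 0.19 and 0.097). Without OE replicate 3 at 16:00 it was 0.65 with an adjusted p of 0.513 (edgeR). At 8:00 it had 0.0872, 0.167 and 0.0681 CPM in GL and 5.37, 7.31 and 0.364 CPM in OE, a log2 fold change of 5.20 (SE 1.44; adjusted p = 0.042, edgeR). That call was lost without any 1 GL library or without OE replicate 1 or 2 of the hour (edgeR adjusted p of 0.107 to 0.14). The average difference of 1.16 (SE 0.41; adjusted p = 0.037, edgeR) was lost in 21 of the 36 fits.

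Among members without a name, the largest called decrease at 16:00 was at a pair of overlapping loci. OS10G0439924 had 31.7, 40.7 and 26.2 CPM in GL and 4.38, 8.70 and 8.72 CPM in OE (log2 -2.29, SE 0.51; adjusted p = 0.0051, edgeR). Its partner OS10G0439986 had 22.3, 25 and 21.3 CPM in GL and 3.88, 5.27 and 7.41 CPM in OE. The genotypes did not overlap at either locus. OS10G0439924 was also lower at 20:00, with 3.91, 8.92 and 10.6 CPM in GL and 0.393, 1.74 and 1.35 CPM in OE (log2 -2.73, SE 0.56; adjusted p = 0.0042, edgeR).

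The largest called average increase, 1.53 log2 units (SE 0.17; adjusted p = 8.4e-08, edgeR), was at OS01G0871800. This locus overlaps the members OS01G0872000, over 1922 bases on the same strand, and OS01G0872201, over 306 bases on the opposite strand. Its reads are uncertain for that reason. OS01G0871800 stood at 188, 198 and 206 CPM in GL and 214, 213 and 228 CPM in OE at 16:00, and its largest difference was at noon. At 12:00 it had 0.759, 1.12 and 0.451 CPM in GL and 9.48, 13.4 and 15.7 CPM in OE, a log2 fold change of 3.83 (SE 0.44; adjusted p = 2.4e-06, edgeR). The noon call was lost in limma on log2(FPKM + 0.1), where the difference was 2.26 with an adjusted p of 0.103. Its 4:00 difference of 2.32 (SE 0.41; edgeR adjusted p = 6.3e-04) was 0.83 and 0.61 in limma on log2(FPKM + 0.1) and log2(FPKM + 1), with adjusted p values of 0.636 and 0.516. OS06G0474800 had the largest called increase at 4:00 of the unnamed members, with 0.589, 3.84 and 3.41 CPM in GL and 5.05, 10.7 and 29.5 CPM in OE (log2 2.33, SE 0.49; adjusted p = 0.0034, edgeR). Without OE replicate 3 at 4:00 its difference was 1.57 with an adjusted p of 0.0811 by the same test.

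The 3 members named above for their GL profile differed between the genotypes at 1 hour each. OS07G0529600 had 18.1, 9.43 and 18.8 CPM in GL and 102, 71.6 and 55.5 CPM in OE at 0:00, a log2 fold change of 2.31 (SE 0.43; adjusted p = 0.0017, edgeR). By 4:00 its genotypes overlapped again, at 1.94 to 6.82 CPM in GL and 3.09 to 8.71 CPM in OE. OS01G0606900 was higher in OE at noon, with 14.3, 16.8 and 15.7 CPM against 8.26, 3.51 and 3.79 CPM in GL (log2 1.37, SE 0.32; adjusted p = 0.016, edgeR). That call was lost without GL replicate 2 or 3 at 12:00 (edgeR adjusted p of 0.136 and 0.113) and in limma on log2(FPKM + 0.1) (adjusted p = 0.145). OS03G0184100 was higher in OE at 4:00, with 11.5, 12.8 and 18.8 CPM against 2.61, 2.60 and 3.89 CPM in GL (log2 2.03, SE 0.28; adjusted p = 2.1e-05, edgeR). At 16:00 it had 360, 335 and 317 CPM in GL and 289, 235 and 195 CPM in OE, and that difference was not called (log2 -0.59, SE 0.23; edgeR adjusted p = 0.12). It was called in DESeq2 (adjusted p = 0.00995) and in limma on log2(FPKM + 1) (adjusted p = 0.0237). By edgeR it was called with the replicate block (adjusted p = 0.0423) and with replicates 2 and 3 only (adjusted p = 0.00894). It was also called by edgeR without OE replicate 1 at 16:00 (adjusted p = 0.0318).

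One further gene, singled out after its values were seen, did not repeat its GL pattern between OE libraries. OS06G0317600 had 17.1, 22.7 and 35 CPM at 16:00 in GL and at most 0.489 CPM at any other hour. In OE it had 43.8, 0 and 21 CPM at 16:00, 33.1 CPM in 1 of 3 libraries at 20:00, and 14.6 and 7.98 CPM in 2 of 3 at 4:00.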

How the data were processed

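RNA sequencing libraries of 36 leaf samples were grouped by title and sampling hour into 12 groups of 3. RNA was isolated with TRIzol and sequenced with an unstranded kit, per the labels' protocols. TopHat2, Cufflinks and Cuffdiff with build IRGSP-1.0 are listed per the submitters' processing notes; their versions are not given in the labels. Every deposited table holds a column that is treated here as holding expected counts, which the authors rounded to whole numbers, and FPKM values by the authors, for 35477 loci. Counts were used without further rounding.

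edgeR 4.0.16 (R 4.3.3) served for tests of counts: genes were filtered with filterByExpr by group (at least 10 counts, total at least 15; 21772 genes kept, all 150 members among them), TMM scaling, and 1 quasi-likelihood model of the 12 groups, with Benjamini-Hochberg adjustment over all genes tested and a threshold of 0.05. Fold changes are on TMM-scaled library sizes, while printed CPM are on total counts. The alternatives were RLE size factors, no filter, DESeq2 1.42.0, limma 3.58.1 on log2(FPKM + 0.1) and log2(FPKM + 1), a replicate block, replicates 2 and 3 only, and leaving out each library; the test was tried on simulated data first. Libraries of a group are biological repeats in the design text; whether they are separate plants is not stated, and p-values measure the spread between them.

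The members, lists and tests were chosen with earlier results of these data known. Members were named where a known rice name of the identifier stood in a RefSeq gene table (ASM3414082v1, another build) on the same chromosome within 5 Mb, which held for 12; of these all are described, with the widest ranges and at most 2 unnamed members each way per comparison. The table holds no products or promoters, so the planned grouping by role and the promoter motifs were not run; roles in the text are background knowledge.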

Additional observations from a re-analysis of the deposited data

Results flagged for a closer look

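The shape over the day differed between GL and OE for 6 of the members described, by the genotype by hour interaction of edgeR (quasi-likelihood, Benjamini-Hochberg adjusted over all genes tested). The adjusted p was 0.007 for OsCIPK7, 0.0025 for OsCIPK12, 0.0011 for OsPIP2;7 and 0.00067 for OsHsfC1b. It was 0.00032 for OS03G0184100 and 0.00075 for OS01G0871800. All 6 were called higher in OE at 4:00, by 2.03 to 2.50 log2 units, although limma on log2(FPKM + 0.1) and log2(FPKM + 1) did not call OS01G0871800 and OsCIPK12 there, and the second did not call OsCIPK7. At 16:00 OsCIPK7 and OsCIPK12 were called lower, and the other 4 were not called. In limma on log2(FPKM + 0.1) the interaction was not called for OsCIPK12, OS03G0184100 and OS01G0871800, with adjusted p values of 0.0574, 0.106 and 0.755. For OS01G0871800 it was not called in limma on log2(FPKM + 1) either (adjusted p = 0.378). The GL shape had been used to choose these genes.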

How the results depend on the processing

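Of 90 comparisons of a member count with its value under another setting, leaving out single libraries apart, 73 stayed within 1.5 times. With replicates 2 and 3 only, 61 genes were lower and 3 higher at 16:00, 18 were lower on average, 70 passed the interaction, 36 were called at 12:00 and 17 at 20:00. DESeq2 called 35 lower at 16:00, 71 for the interaction, 29 at 12:00 and 13 at 20:00. Limma on log2(FPKM + 0.1) called 26 for the interaction and 13 at 0:00, and on log2(FPKM + 1) it called 22 lower on average. Calls over all genes tested moved as well. At 16:00 they were 1722 in the main fit, 3896 with replicates 2 and 3 only and 2349 in DESeq2. For the interaction they were 409, 1615 and 1035, and 295 in limma on log2(FPKM + 0.1). In the same 3 fits they were 439, 1246 and 706 at 12:00, and 547, 1152 and 891 at 20:00. At 0:00 they were 507 in the main fit and 425 in limma on log2(FPKM + 0.1). Lower on average were 2610 in the main fit, 3109 with replicates 2 and 3 only and 2677 in limma on log2(FPKM + 1). The cause of these shifts was not tested.

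The replicate numbers were not taken to pair the samples in the main model. Deviations of same-numbered GL and OE libraries correlated at 0.054 to 0.482, over 0.1 in 15 of 18 pairs. Those of same-numbered OE libraries at different hours correlated at 0.039 to 0.503, over 0.1 in 41 of 45 pairs. With the replicate block, 44 genes were lower and 1 higher at 16:00, 32 were called at 12:00 and 18 at 20:00. The other member counts stayed within 1.5 times. Over all genes tested, the calls at 16:00 were 1722 in the main fit and 3248 with the block. At 12:00 they were 439 and 1000, and at 20:00 547 and 1236.

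Leaving out each library in turn gave 6 to 46 lower and 0 to 1 higher at 16:00, 26 to 43 called at 4:00, 11 to 24 at 8:00, 12 to 19 at 12:00, 2 to 8 at 20:00 and 13 to 28 at 0:00. The average gave 41 to 48 higher and 8 to 13 lower, the interaction 33 to 52, the hour effect in OE 149 to 150 and the OE maximum at 16:00 148 to 150. The rule kept 131 of the 150 genes with a pseudocount of 1, 137 with TMM-scaled libraries, 144 with a minimum of 20 CPM, and 136, 144 and 144 without replicates 1, 2 and 3. No called direction reversed for any gene named. Levels near 0 at 4:00 and 8:00 limit the precision of fold changes there. The planned role groups and promoter motifs were not run, since the reference table holds neither products nor promoters.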
